A study of Mus musculus with 8 samples.

Results

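The mitochondrial carriers are the *Slc25a* genes and the uncoupling protein genes, and they were measured here in the kidneys of mice with a point mutation in *Scube3*. Members were all probes whose symbol in the probe annotation began with *Slc25a* or was *Ucp1*, *Ucp2* or *Ucp3*. This gave 60 probes for 41 genes, out of 25697 probes for 16593 named genes. A probe was counted as above background where its detection p-value was under 0.05, and it was tested where this held on at least 4 of the 8 arrays, which left 39 carrier probes for 30 genes among 12914 probes for 8999 genes. *Ucp2*, *Slc25a4* and *Slc25a37* are not analysed here.

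Male mice of the C3HeB/FeJ strain were compared at an age of 29 weeks, with 4 wild type mice and 4 homozygous *Scube3* mutant mice and 1 array per mouse. The mutants came from a line made with the chemical mutagen ENU, in which a missense change exchanges asparagine for lysine in the SCUBE3 protein. No other allele, transgene or treatment separated the genotypes per the labels, and all mutants descend from a single mutant line. Whole kidney RNA was measured, so that fewer cells of a type and less RNA per cell cannot be told apart. Between 12602 and 13127 probes were above background on each array, and the correlation between arrays over the probes tested lay between 0.985 and 0.995. The first principal component took 41.6% of the variance and separated the genotypes, with wild type mouse 1 farthest out. *Scube3* was above background in all 8 mice on its brighter probe, at 5.38 ± 0.23 in wild type and 5.50 ± 0.30 in mutant mice on the log2 scale (SD, n = 4), and the difference did not pass the test (adjusted p = 0.625), which bears on the transcript and not on the exchanged residue.

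Mitochondrial carriers are small proteins of the inner mitochondrial membrane that fold around a central substrate site and open in turn to either side. They let nucleotides, phosphate, carboxylates, amino acids, cofactors and metals cross a membrane that is otherwise closed to them. The tubule cells of the kidney are rich in mitochondria, since salt reabsorption uses much ATP, and the proximal tubule also makes glucose and ammonia from substrates that pass through these carriers.

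Levels are given as normalized log2 intensities, and they are compared between mice for the same probe and never between probes. A difference of 1 is a doubling of the intensity with an added offset of 16. Fold changes of dim probes are therefore compressed. Of the 30 carrier genes tested, 7 differed between the genotypes at an adjusted p under 0.05 on their brightest probe (23.3%, against 16.2% of all genes tested). *Slc25a1*, *Slc25a10*, *Slc25a12* and *Slc25a28* rose in the mutant, which is 4 of 30 beside a background of 8.39% of all genes. *Slc25a16*, *Slc25a33* and *Slc25a36* fell, which is 3 of 30 beside a background of 7.86%. No difference between the family and the other genes was tested, and these shares are given as a description. The median log2 fold change was 0.032 over the 30 carriers and 0.025 over all genes tested. All mutant mice lay above or below all wild type mice for 11 carriers, 6 above and 5 below, where 24.5% of all genes had genotypes that did not overlap.

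The changes were small. The largest was the fall of *Slc25a36*, by 1.44-fold, and the other 6 genes that passed moved by 1.18- to 1.25-fold. SAM with a required fold change above 1.6, the method the study names, was rewritten here from its published description. This version therefore called 0 carriers on the authors' normalized intensities, where it called 234 of all 25697 probes (0.911%). That count is from the rewritten version, with low intensities set to a floor, and is not the number of genes the study reports. Limma on the scanned intensities had 12 of 30 carriers with an unadjusted p under 0.05, beside 3060 of the 8999 genes (34%). The largest fold of a carrier probe on the authors' values was 1.53, for *Slc25a32*. All 4 rises were lost with median scaling of the arrays, which left the 3 falls and added that of *Slc25a32*. Median scaling moved the share of higher among all called probes from 46.8% to 13.2%. It moved the median log2 fold change of all tested probes from 0.013 to -0.046. All 7 genes kept their direction in each of the 17 other settings tried, which was largely fixed in advance. Other filters and the replicate block leave the log2 fold change as it is. Genotypes that do not overlap can hardly change order when mice are left out.

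**Figure D1:**
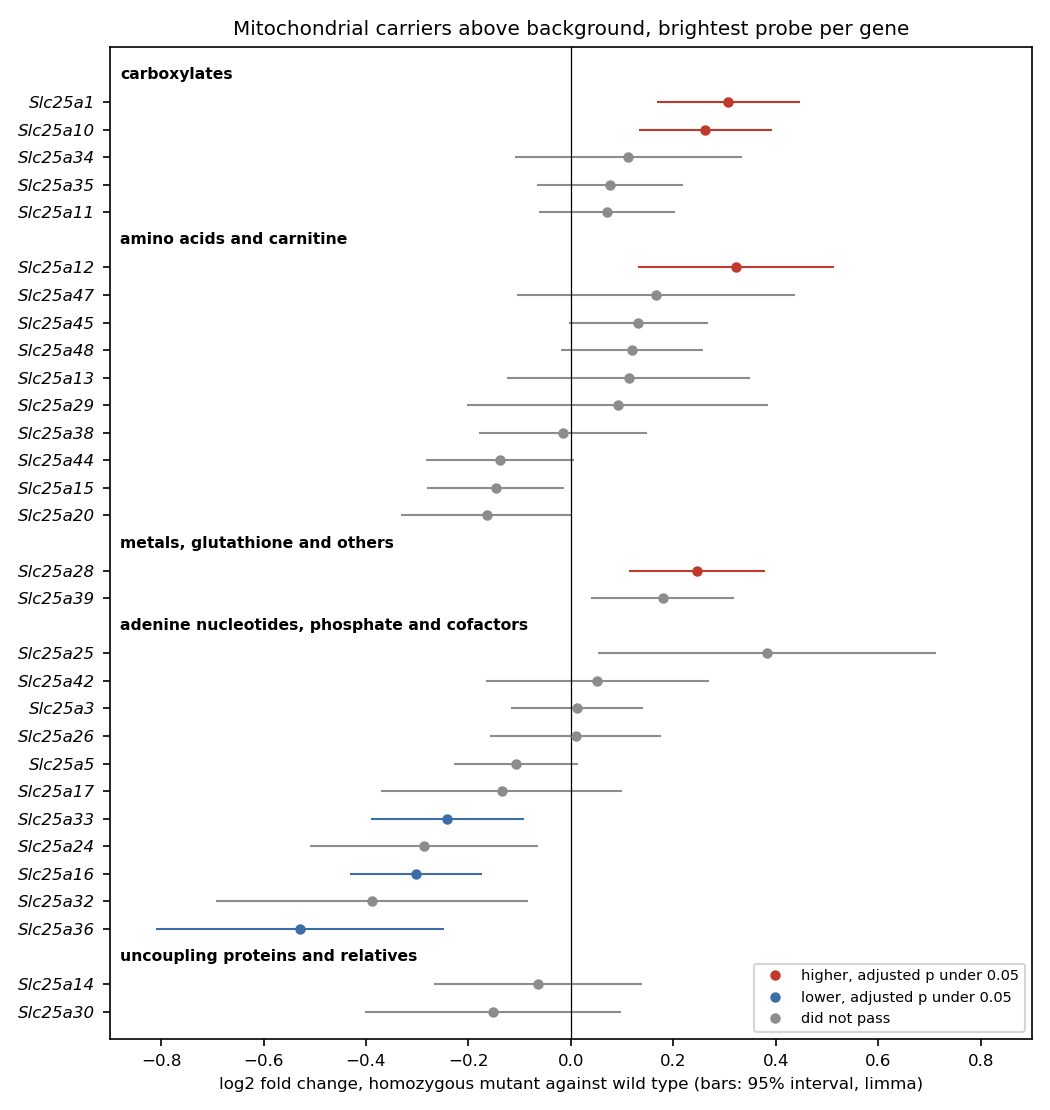
Log2 fold change of homozygous mutant against wild type kidneys for the 30 carrier genes above background, with the 95% interval from limma as bars (n = 4 mice per genotype). Genes are grouped by the substrate class they were assigned to, orphan carriers included. The 4 red points lie between 0.25 and 0.32 and the 3 blue points between -0.53 and -0.24, and the remaining 23 genes did not pass the test.

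The carriers of adenine nucleotides, phosphate and cofactors held all 3 genes that fell. The annotation named 13 of them, 11 were tested, 3 were lower, 0 were higher and 8 did not pass, with 6 at an unadjusted p under 0.05. Over all genes tested, 7.86% were lower and 34% had such a p. Their median log2 fold change was -0.14. *Slc25a33* and *Slc25a36* encode carriers that bring pyrimidine nucleotides into mitochondria, where they serve the synthesis of mitochondrial RNA and DNA. *Slc25a16* encodes a carrier linked in yeast to the entry of coenzyme A.

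Both pyrimidine nucleotide carriers were lower in the mutants. The 250 bases before their annotated start are shown in full, beside those of *Slc25a1* and *Slc25a10*, which rose. The sequences are of the GRCm38.p6 assembly from RefSeq, and capitals mark the E-box letters CACGTG and the letters TGACGT of a cyclic AMP response element half-site, on either strand.
*Slc25a33*, chr4:149774268-149774517, minus strand: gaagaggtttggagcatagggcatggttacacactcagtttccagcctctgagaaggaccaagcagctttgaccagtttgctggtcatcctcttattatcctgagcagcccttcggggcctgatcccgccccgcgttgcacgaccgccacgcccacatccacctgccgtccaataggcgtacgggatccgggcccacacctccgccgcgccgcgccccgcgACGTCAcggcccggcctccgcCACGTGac
*Slc25a36*, chr9:97111042-97111291, minus strand: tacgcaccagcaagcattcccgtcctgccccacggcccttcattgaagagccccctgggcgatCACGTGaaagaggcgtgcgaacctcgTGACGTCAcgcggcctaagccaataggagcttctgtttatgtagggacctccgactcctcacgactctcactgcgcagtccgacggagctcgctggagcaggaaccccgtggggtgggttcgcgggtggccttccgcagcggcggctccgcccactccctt
*Slc25a1*, chr16:17928220-17928469, minus strand: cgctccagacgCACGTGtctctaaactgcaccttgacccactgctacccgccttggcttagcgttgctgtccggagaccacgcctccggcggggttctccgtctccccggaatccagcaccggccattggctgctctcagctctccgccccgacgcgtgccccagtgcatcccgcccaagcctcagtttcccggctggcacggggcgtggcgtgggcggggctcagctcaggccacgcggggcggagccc
*Slc25a10*, chr11:120491587-120491836, plus strand: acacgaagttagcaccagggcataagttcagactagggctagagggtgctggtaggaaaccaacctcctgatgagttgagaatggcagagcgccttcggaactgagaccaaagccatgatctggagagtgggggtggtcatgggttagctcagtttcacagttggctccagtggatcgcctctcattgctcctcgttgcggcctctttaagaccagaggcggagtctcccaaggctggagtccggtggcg

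Both pyrimidine carrier promoters held both motifs. In *Slc25a33* the E-box began 8 bases and the half-site 29 bases before the start. In *Slc25a36* the E-box began 187 bases before the start, and the half-site followed nearer to it as the palindrome TGACGTCA, in which the matches on the 2 strands overlap. The motifs were chosen with the sequences in view. E-box letters stood in 6.0% of 32851 mouse promoters of the same length, half-site letters in 6.5%, and both in 0.5%. The letters GGGCGG of a GC box and CCAAT were also sought. They stood in both pyrimidine carrier promoters, and in 32.7% and 33.8% of all promoters. These shares count promoter entries, whereas a carrier with several entries was counted if any of them matched. Of the 26 tested carriers that matched a promoter entry, 6 held the E-box letters, namely *Slc25a33*, *Slc25a36*, *Slc25a1* and 3 that did not pass. The half-site letters stood in *Slc25a33*, *Slc25a36* and 2 carriers that did not pass. *Slc25a16*, which also fell, held neither of these, and no GC box or CCAAT letters. These matches describe letters, not bound sites.

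*Slc25a36* read 9.41, 9.64, 9.22 and 9.58 in the wild type mice and 8.93, 9.06, 9.14 and 8.61 in the mutants. The genotypes did not overlap, and mutant mouse 4 was lowest. Its log2 fold change was -0.53 with a standard error of 0.13 (adjusted p = 0.0226). Without wild type mouse 2 or without wild type mouse 4 it no longer passed, and its highest adjusted p with 1 mouse left out was 0.0556.

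For *Slc25a33* the wild type mice read 8.23, 8.23, 8.41 and 8.19, and the mutants 8.08, 8.06, 7.97 and 7.98. All mutant values were lower, by 0.24 on average (SE 0.067, adjusted p = 0.0374). The call was lost in 10 of 17 other settings, more than for any other of the 7 genes. It was lost when any mouse but wild type mouse 4 was left out, with adjusted p-values between 0.0508 and 0.0807.

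*Slc25a16* read 10.41, 10.47, 10.39 and 10.36 in wild type mice and 10.17, 10.13, 10.04 and 10.06 in mutants. The ranges were apart by more than either genotype's own spread, and the log2 fold change was -0.30 (SE 0.058, adjusted p = 0.0111). It passed with each of the 8 mice left out, at adjusted p-values from 0.0172 to 0.0327.

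The remaining carriers of this group varied in both directions. *Slc25a32*, which encodes a carrier for folate or flavin cofactors, had a log2 fold change of -0.39 (95% interval -0.69 to -0.08, adjusted p = 0.0776), and *Slc25a24*, one of the carriers that exchange ATP-magnesium for phosphate under the control of calcium, had -0.29 (adjusted p = 0.0748). *Slc25a25*, of the same ATP-magnesium carriers, had the largest positive value of all 30 genes at 0.38, with an interval from 0.05 to 0.71 (adjusted p = 0.101). Its wild type mice read 8.60, 8.88, 9.34 and 8.90 and its mutants 9.52, 9.33, 9.33 and 9.08, so that wild type mouse 3 lay among the mutants, and without that mouse it passed at an adjusted p of 0.0261. *Slc25a5*, which encodes an ADP/ATP translocase, read 13.53, 13.52, 13.45 and 13.51 in wild type and 13.40, 13.39, 13.45 and 13.36 in mutant mice, a log2 fold change of -0.11 that did not pass (adjusted p = 0.189). The phosphate carrier *Slc25a3* had a log2 fold change of 0.012, with a 95% interval of -0.12 to 0.14. The peroxisomal carrier *Slc25a17*, the S-adenosylmethionine carrier *Slc25a26* and the coenzyme A carrier *Slc25a42* had -0.14, 0.0090 and 0.052. *Slc25a31* and *Slc25a41* were above background in no mouse.

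Of the 6 genes placed with the carboxylate carriers, 5 were tested, 2 were higher, 0 were lower and 3 did not pass. At an unadjusted p under 0.05 there were 2, where 8.39% of all genes were higher and 34% had such a p. The orphan carriers *Slc25a34* and *Slc25a35*, with no settled substrate, are among the 5. All 5 had positive log2 fold changes, from 0.070 to 0.31 with a median of 0.11, the value of *Slc25a34*. That of *Slc25a35* turned to -0.028 with median scaling. *Slc25a1* encodes the citrate carrier, which exports citrate to the cytosol for fatty acid synthesis, and *Slc25a10* the dicarboxylate carrier, which exchanges malate and succinate for phosphate.

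*Slc25a1* read 9.72, 9.90, 9.81 and 9.88 in wild type mice against 10.19, 10.08, 10.15 and 10.11 in mutants. The lowest mutant was above the highest wild type mouse, and the log2 fold change was 0.31 (SE 0.062, adjusted p = 0.0129). Its second probe gave the same difference, 0.31, with wild type mouse 1 at 7.34 and the other wild type mice at 7.76 to 7.84, and did not pass with its wider error (adjusted p = 0.0758).

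*Slc25a10* read 11.42, 11.41, 11.53 and 11.47 in wild type and 11.74, 11.64, 11.74 and 11.76 in mutant mice. Again the genotypes did not overlap, and the log2 fold change was 0.26 (SE 0.058, adjusted p = 0.0178). Both calls held with each mouse left out in turn, at adjusted p-values of at most 0.0341 for *Slc25a1* and 0.0481 for *Slc25a10*.

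*Slc25a11*, which encodes the oxoglutarate/malate carrier of the malate-aspartate shuttle, had 3 probes, of which 1 was called. On the brightest probe the wild type mice read 10.26, 10.37, 10.42 and 10.41 and the mutants 10.46, 10.37, 10.45 and 10.45, a log2 fold change of 0.070 that did not pass (adjusted p = 0.431). On the second, wild type mice read 9.06, 9.22, 9.21 and 9.19 and mutants 9.50, 9.47, 9.40 and 9.31. Here the genotypes were separate and the probe was called higher, by 0.25 (SE 0.066, adjusted p = 0.0327). The third read 7.65, 7.89, 7.87 and 7.71 against 7.58, 7.63, 7.59 and 7.72, a log2 fold change of -0.15 (adjusted p = 0.166). For the genotype difference between probes, an exact two-sided permutation test over the mice gave p = 0.0286 for each of the 3 pairs, the smallest that 70 arrangements allow, and 0.105 after adjustment over the 11 probe pairs of the family. No pair passed after adjustment. With 70 arrangements and 11 pairs the test had little room to pass, so it cannot decide whether these probes differ. What part of the transcript each probe reads is not analysed here.

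The orphan carriers *Slc25a34* and *Slc25a35* had 0.11 and 0.076 and did not pass. *Slc25a21*, the oxoadipate carrier, was above background in no mouse.

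**Figure D2:**
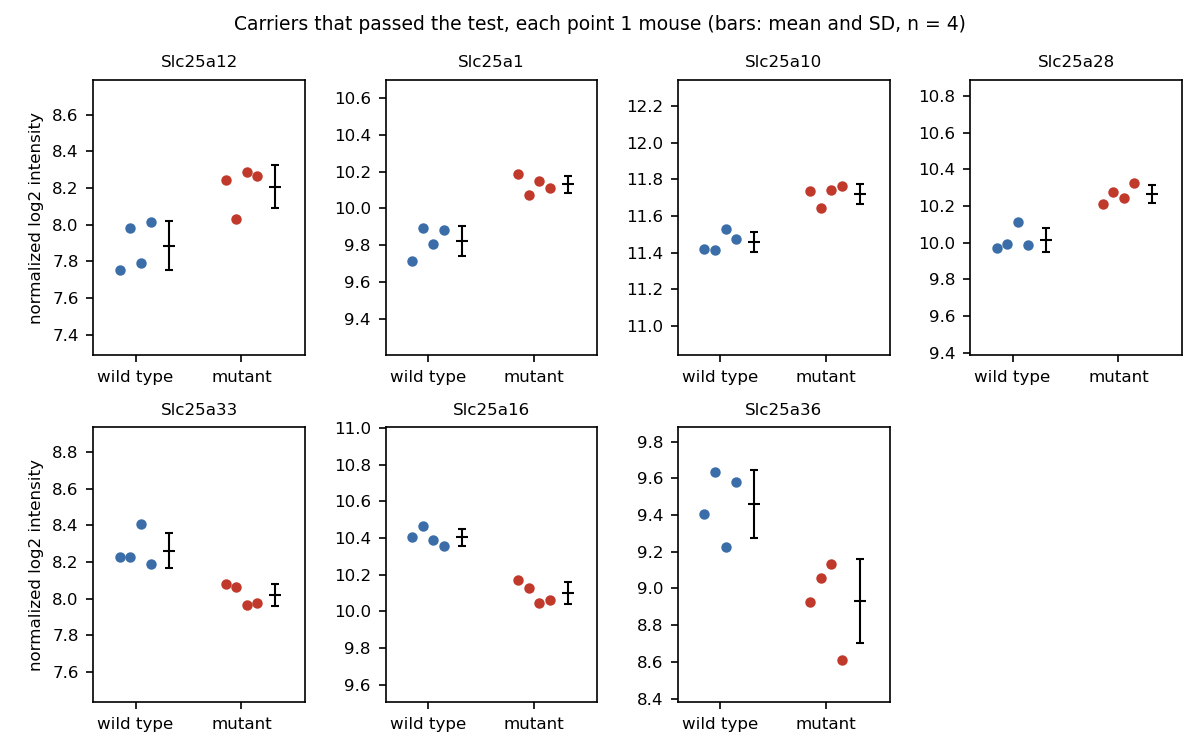
Normalized log2 intensity of the 7 carriers that passed the test on their brightest probe, each panel spanning 1.5 log2 units, with 1 point per mouse (blue wild type, red homozygous mutant) and the mean and SD of each genotype in black (n = 4). No panel has overlapping genotypes, and the gap is narrowest for *Slc25a12*, where a wild type mouse at 8.02 lies below a mutant at 8.03.

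The genes placed with the amino acid and carnitine carriers numbered 12, of which 10 were tested, 1 was higher, 0 were lower and 9 did not pass. At an unadjusted p under 0.05 there were 2, beside the same background. Their median log2 fold change was 0.10, and 6 were positive and 4 negative. The positive ones include *Slc25a45*, *Slc25a47* and *Slc25a48*, for which no substrate is given here. *Slc25a12* encodes an aspartate/glutamate carrier of the malate-aspartate shuttle that is regulated by calcium.

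*Slc25a12* read 7.75, 7.98, 7.79 and 8.02 in wild type and 8.24, 8.03, 8.29 and 8.27 in mutant mice. Mutant mouse 2 nearly met the highest wild type mouse, and the log2 fold change was 0.32 (SE 0.086, adjusted p = 0.0322). Leaving out wild type mouse 1 or 3, or mutant mouse 1, 3 or 4, ended the call, with adjusted p-values up to 0.0808. *Slc25a13*, its paralog, had 0.11 with a 95% interval of -0.12 to 0.35 (adjusted p = 0.482).

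*Slc25a15* encodes the ornithine carrier of the urea cycle, and its probes differed in call. The brightest read 11.34, 11.36, 11.34 and 11.42 in wild type and 11.22, 11.30, 11.24 and 11.12 in mutant mice, a log2 fold change of -0.15 that did not pass (adjusted p = 0.116). The dimmer probe read 8.99, 8.79, 8.81 and 8.78 against 8.37, 8.50, 8.65 and 8.37 and was called lower, by 0.37 (SE 0.081, adjusted p = 0.0176). All mutants lay below all wild type mice on both probes. The fold changes of the probes differed by 0.22 (exact permutation p = 0.0571, 0.126 after adjustment). With the mean of its probes in place of the brightest, the gene was called lower.

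*Slc25a20*, the carnitine/acylcarnitine carrier needed for the oxidation of long-chain fatty acids, had -0.16 (95% interval -0.33 to 0.0021, adjusted p = 0.151) on its brightest probe and 0.058 on its dimmer probe. The carriers linked to branched-chain amino acids, *Slc25a44*, and to glycine, *Slc25a38*, had -0.14 and -0.016. *Slc25a29*, which encodes a carrier of basic amino acids, had 0.091. *Slc25a45*, *Slc25a47* and *Slc25a48* had 0.13, 0.17 and 0.12, and for *Slc25a48* the mutants lay above all wild type mice without passing (adjusted p = 0.203). The glutamate carriers *Slc25a18* and *Slc25a22* were above background in no mouse and in 1 wild type mouse.

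Among the carriers of metals, glutathione and other substrates, 5 were named, 2 were tested and 1 was higher, where 8.39% of all genes were higher. With 2 genes tested, no share is read from this. *Slc25a28* encodes mitoferrin-2, which brings iron into mitochondria. Its wild type mice read 9.97, 9.99, 10.12 and 9.99 and its mutants 10.21, 10.28, 10.25 and 10.32. Mutants were higher by 0.25 on the log2 scale (SE 0.059, adjusted p = 0.0232), and wild type mouse 3 stood above the other wild type mice. The call was lost without wild type mouse 1 or 2 and without mutant mouse 2 or 4, with an adjusted p of at most 0.0569. *Slc25a39*, a carrier needed for mitochondrial glutathione, read 11.75, 11.84, 11.94 and 11.88 against 12.06, 12.09, 11.96 and 12.01. The genotypes did not overlap, but the log2 fold change of 0.18 did not pass (adjusted p = 0.0772). Its relative *Slc25a40*, *Slc25a46* of the outer membrane and *Slc25a53* were above background in no mouse.

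**Figure D3:**
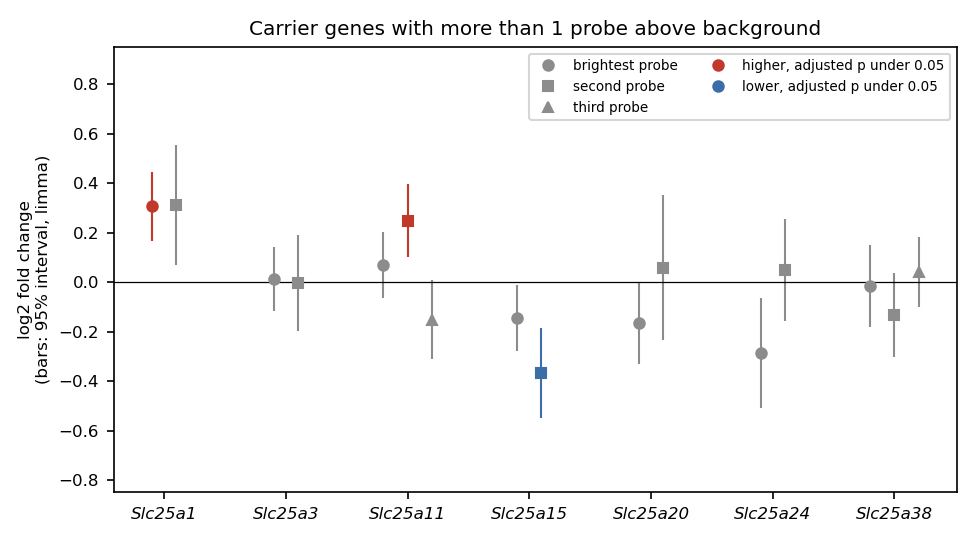
Log2 fold change of mutant against wild type, with the 95% interval from limma, for each probe of the 7 carrier genes with more than 1 probe above background (circle brightest, square the second, triangle the third). The 2 probes of *Slc25a1* coincide at 0.31, while those of *Slc25a11* spread from -0.15 to 0.25.

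Over all probes of the family that were tested, 5 were higher and 4 lower of 39, where 16.7% of the 12914 probes were called in either direction. With *Slc25a11* and *Slc25a15*, 9 genes had a called probe. That count gives genes with several probes more chances, and the same share over all genes was not computed, so it is not read as a result. Of the 14 genes with more than 1 probe, 7 had more than 1 above background, and besides the 2 genes named, *Slc25a24* had -0.29 and 0.050 on its probes, a difference that did not pass (exact permutation p = 0.0857, 0.157 after adjustment). The 2 probes of *Slc25a3* differed by 0.015, and the 3 probes of *Slc25a38* ranged from -0.13 to 0.041.

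Uncoupling proteins let protons back across the inner membrane, and UCP1 does so in brown fat to make heat. Of this group 5 genes were named and 2 were tested, and 0 passed, with 0 at an unadjusted p under 0.05. The tested genes were the relatives *Slc25a14* and *Slc25a30*, with -0.065 and -0.15. *Slc25a30* had a 95% interval of -0.40 to 0.098. *Slc25a27* was above background in 1 wild type mouse, and *Ucp3*, known from muscle, in no mouse, at 4.40, 4.46, 4.30 and 4.44 in wild type and 4.37, 4.37, 4.43 and 4.51 in mutant mice.

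*Ucp1* was not tested, because it was above background in only 3 mice. It read 4.57, 4.33, 4.38 and 6.31 in the wild type mice and 4.84, 4.80, 6.58 and 5.97 in the mutants. Wild type mouse 4 and mutant mice 3 and 4 were high, and the remaining 5 mice lay near the level of genes not above background, with mutant mouse 1 close to the limit at a detection p of 0.0551. The genotypes overlapped.

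The same 3 mice were the only ones above background for *Cidea*, a lipid droplet gene of brown fat, and for *Adipoq*, the fat cell hormone adiponectin. *Cidea* read 4.72, 4.52, 4.55 and 6.48 in wild type and 4.88, 4.68, 7.33 and 5.98 in mutant mice. *Adipoq* read 4.70, 4.53, 4.61 and 5.21 against 4.56, 4.59, 6.47 and 5.19. *Cox8b*, a cytochrome oxidase subunit of brown fat and muscle, was also highest in these mice, at 7.00, 7.97 and 6.83 where the others read 4.92 to 5.91, and its difference between genotypes did not pass (log2 fold change 0.98, adjusted p = 0.218). Of the 11 fat markers with a probe, *Ucp1* included, 5 or 6 were above background in each of the 3 mice and 2 or 3 in each of the others. Summed over the list, intensity above the offset ran from 836 to 1108 in wild type and from 837 to 1319 in mutant mice. Most of this sum came from *Cox7a1*, at 9.53 to 9.67 in all 8 mice, so it says little on *Ucp1*, *Cidea* and *Adipoq*. The fat genes *Plin1*, *Fabp4*, *Elovl3* and *Retn* were above background in no mouse, *Lep* was in wild type mouse 3 and mutant mouse 3, *Dio2* in wild type mouse 2, and *Cox7a1* in all 8. None of 8 muscle markers was tested, and 7 of them were above background in no mouse. The part of fat tissue in these values was not tested.

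Without the 3 mice, 3 wild type and 2 mutant mice remained, and no carrier passed. At an unadjusted p under 0.05, limma then had 5 carriers higher and 3 lower, and only 67 of all 8999 genes passed (0.745%). The 7 carriers called over all mice kept their direction, which could hardly turn because their genotypes did not overlap. This comparison was added after the *Ucp1* values were seen.

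**Figure D4:**
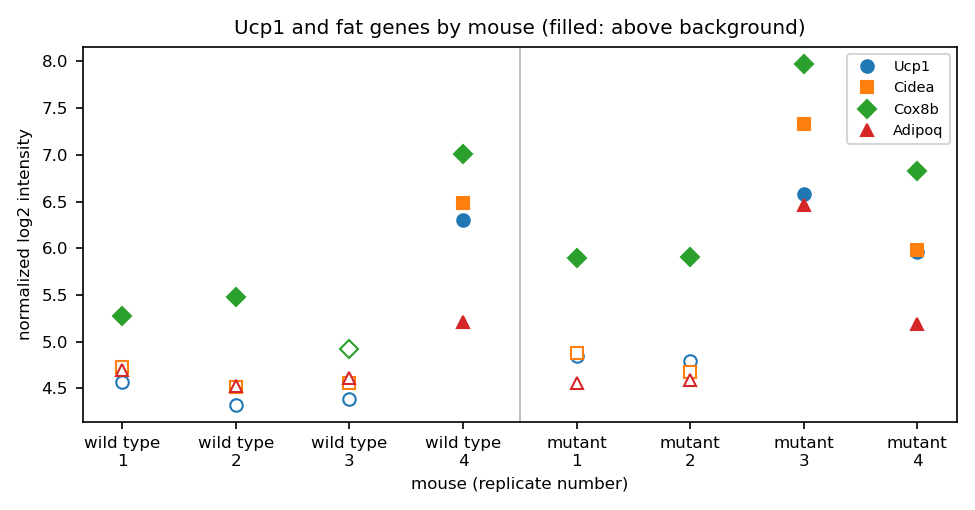
Normalized log2 intensity of *Ucp1* and of the fat genes *Cidea*, *Cox8b* and *Adipoq* in each of the 8 mice, filled where the probe was above background. Wild type mouse 4 and mutant mice 3 and 4 are high for all 4 genes, with *Ucp1* at 6.31, 6.58 and 5.97.

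Other genes that work beside the carriers were taken from 3 lists, with 60 genes on the array and 53 tested. Of these, 3 were higher, 3 were lower and 47 did not pass, which is 11.3% beside the 16.2% of all genes, and their median log2 fold change was 0.064. Among 19 other mitochondrial transporters, 0 were higher and 1 was lower, with 7 at an unadjusted p under 0.05 (34% of all genes). That gene was *Vdac3*, a channel of the outer membrane, at -0.29 (adjusted p = 0.0213). Enzymes that use or make carrier substrates had 20 tested genes, with 2 higher and 2 lower. *Ckmt1*, the mitochondrial creatine kinase, had 0.33 and *Crat*, carnitine acetyltransferase, 0.27. *Glud1*, glutamate dehydrogenase, had -0.38 and *Cs*, citrate synthase, -0.22, so that citrate synthase fell while the citrate carrier *Slc25a1* rose. In the import machinery, 14 genes were tested, 1 was higher and 0 were lower. The gene was *Timm50*, a subunit of the inner membrane translocase, at 0.30 (adjusted p = 0.0097).

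Nephron segments differ in their mitochondria, so their markers are given beside the carrier values, to be read against the 8.39% of all genes that were higher and the 7.86% that were lower. Of 11 proximal tubule markers tested, 0 were higher and 1 was lower, *Lrp2*, with a median log2 fold change of 0.038 and 3 at an unadjusted p under 0.05. Of 9 markers of the thick ascending limb, the salt-reabsorbing segment of the loop of Henle, 1 was higher and 6 were lower, with a median of -0.54. Its defining genes *Slc12a1*, the sodium-potassium-chloride cotransporter, and *Umod*, uromodulin, had -1.14 and -0.54. The marker that was higher was *Bsnd*, at 0.21, and *Kcnj1* had 0.23 without passing. Summed intensity of this list ran from 17270 to 20170 in wild type and from 11060 to 13670 in mutant mice, and most of this sum came from *Umod*. Of 5 distal convoluted tubule markers 3 were higher and 0 lower, and their summed intensity ran from 7327 to 8543 in wild type and from 8899 to 10060 in mutants. Collecting duct markers had 3 higher and 2 lower of 12. Of 6 leukocyte markers, *Laptm5* was higher, of 8 endothelial markers *Cdh5* and *Ehd3* were lower, and of 3 red blood cell markers and 1 adrenal cortex marker, 0 passed. Unadjusted p-values under 0.05 numbered 0 in the red blood cell and adrenal lists. Whether the carriers moved with the thick ascending limb was not tested.

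**Figure D5:**
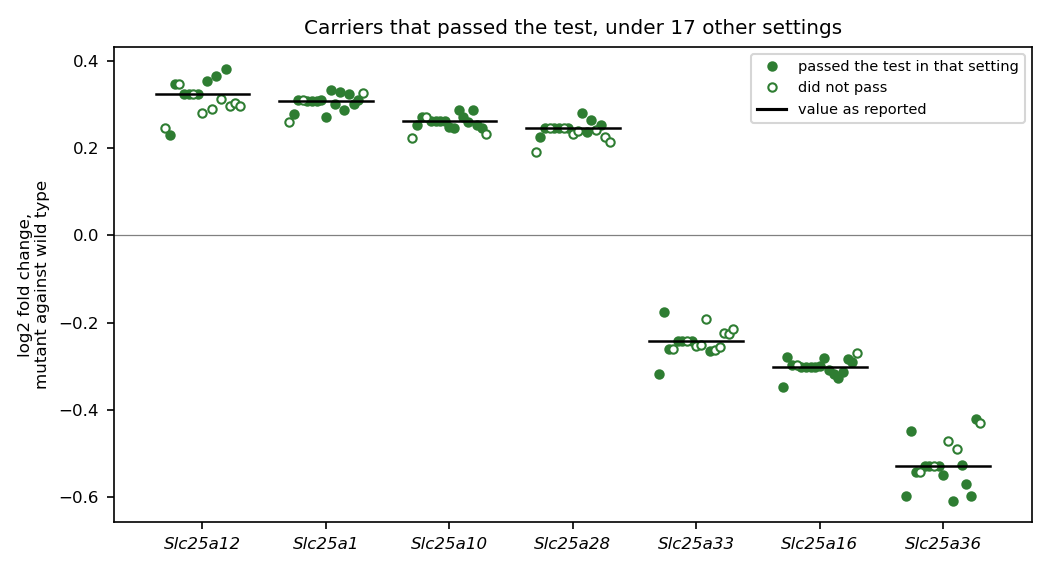
Log2 fold change of the 7 carriers that passed, under each of 17 other settings (filled where the gene passed in that setting, open where it did not) with the value as reported as a black line. Each point stays on the same side of 0 as the value reported, and *Slc25a16* was lost in 2 settings where *Slc25a33* was lost in 10. Settings that change only the filter or add the replicate block leave the fold change as it is.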

How the data were processed

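Kidney RNA of 4 wild type and 4 homozygous *Scube3* mutant mice was hybridized to Illumina Mouse Ref8 v2.0 BeadChips. The authors deposited the scanned intensity of each probe, with no normalization between arrays, and a detection p-value that compares it with negative control probes. A second table deposited by the authors holds intensity after cubic spline normalization in GenomeStudio 2011.1. Neither table holds a comparison of genotypes. Samples were grouped by the genotype in their labels.

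Probes were named from the platform annotation, which gave a gene for 23978 of 25697 probes, with 23962 matched by gene number to a GRCm38.p6 gene table. Scanned intensities were background-corrected from the detection p-values with an offset of 16, then quantile-normalized and logged (base 2) by the neqc function (limma 3.58.1, R 4.3.3). Quantile normalization forces 1 distribution on all arrays, so a general shift between genotypes cannot be seen. A linear model in limma (lmFit, then eBayes) held genotype alone, and Benjamini-Hochberg adjustment covered the 12914 probes tested. Each gene is represented by its brightest probe, by the mean of the 8 arrays. The number of arrays, 8, limits the precision. SAM was written from its published description, with all 70 arrangements, an FDR of 6% and values under 16 set to 16. It stands as an alternative to limma, together with other scalings, background treatments, filters, probe rules, a replicate block and leaving out mice.

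Every member is accounted for. Per-mouse values are given for carriers with a called probe and for *Ucp1* and *Ucp3*, and the carriers *Slc25a5*, *Slc25a25* and *Slc25a39* were given theirs after their values were seen. From each other list, up to 4 called genes with the smallest p could be named. The members and lists were chosen with earlier results of these data known. The lists hold other mitochondrial transporters, enzymes beside the carriers, import machinery, and markers of the proximal tubule, thick ascending limb, distal convoluted tubule, collecting duct, fat, leukocytes, red blood cells, muscle, endothelium and adrenal cortex. The scanned table lists wild type arrays first, and an effect of array order cannot be told apart from genotype. No batch is named in the sources used here.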

Additional observations from a re-analysis of the deposited data

Results flagged for a closer look

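In 8 of 80 genotype groups of carrier probes, 1 mouse stood far from the other 3 of its genotype, by Dixon's test on the gap to the nearest mouse as a share of the whole range, and chance flags about 1 group in 20. The probes were the 39 tested ones and that of *Ucp1*, which was included although it was not tested. Wild type mouse 1 was the odd mouse in 4 of the 8 flagged groups. It was low at 7.34 on the dimmer probe of *Slc25a1* (gap 0.847 of the range), at 9.06 on the second probe of *Slc25a11* (0.84) and at 9.87 for *Slc25a42*, where the other wild type mice read 10.17 to 10.18 (0.97). It was high at 8.99 on the dimmer probe of *Slc25a15* (0.85). Wild type mouse 3 was high at 10.12 for *Slc25a28* (0.855) and at 9.47 for *Slc25a44* (0.887). Mutant mouse 2 was low at 10.37 on the brightest probe of *Slc25a11* (0.901). Wild type mouse 4 was high at 6.31 for *Ucp1* (0.876), as it was for *Cidea* and *Adipoq*.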

How the results depend on the processing

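The share of all genes called moved with the setting. It was 16.2% as reported, 13.2% with median scaling, 22.5% with no background correction, 1.58% by SAM and 9.9% with the replicate block. Probes above background on all 8 arrays gave 20.3%, and the mean of a gene's probes 15.9%. Leaving out the 3 mice with fat markers gave 0.745%, and leaving out 1 mouse 8.73% to 12.7%. The number of carriers called higher was 4 as reported. It was 0 with median scaling (limma, 5 at an unadjusted p under 0.05), 0 by SAM, 2 with the replicate block, 0 without the 3 mice with fat markers, and between 2 and 4 with each mouse left out. The number called lower was 3. It was 0 by SAM, 1 with the replicate block, 0 without the 3 mice with fat markers, and between 1 and 3 with each mouse left out, where the lowest count was without wild type mouse 2. The lowest counts of higher carriers were without wild type mouse 1 and without mutant mouse 4. Among the other mitochondrial genes, 3 were higher, against 0 with median scaling, 9 with no background correction, 0 by SAM, 5 with probes above background on all 8 arrays, 0 without the 3 mice and 2 to 4 with each mouse left out. There 3 were lower, against 5 with no background correction, 0 by SAM, 5 with probes above background on all 8 arrays, 5 with the mean of a gene's probes, 0 without the 3 mice and 1 to 4 with each mouse left out, with 1 without mutant mouse 2. Without the 3 mice, limma had 15 of these genes at an unadjusted p under 0.05. The median log2 fold change of the carriers stayed between -0.019 and 0.065. *Slc25a15* was gained with no background correction and with the mean of its probes, *Slc25a25* without wild type mouse 3, *Slc25a32* with median scaling and without mutant mouse 2, and *Slc25a39* with no background correction. The causes were not tested.

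Replicate numbers did not pair the mice. Deviations of same-numbered mice correlated at 0.13, -0.0701, -0.0964 and -0.0228, and 1 of 4 numbers correlated best with its own. With the replicate block 891 genes were called in place of 1462. Dim carriers near background, such as *Slc25a13* and *Slc25a47*, have wide intervals, and changes in the 11 carriers that were not tested were not detectable here.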
